A study of Homo sapiens with 24 samples.

Results

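The 42 genes described here encode the machinery that copies DNA: the proteins that license replication origins, the helicase that opens the double helix, and the polymerases, clamp, single-strand binding protein and chromatin factors of the replication fork. They are a list of named genes found by symbol, drawn up with earlier results of these data known, and they are 42 of the 57992 genes in each count table. All 42 had enough counts to be tested in both assays, among 18287 genes tested in RNA-seq and 19780 tested in ribosome footprints. Their levels were followed in human K562 cells after knockdown of DDX3X, an X-linked gene that encodes an RNA helicase of translation initiation.

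K562 is an established erythroid-like line from a chronic myelogenous leukaemia. Every culture carried a CRISPR interference system, in which a guide RNA directs a repressor to a promoter. The guide sgDDX3 targets DDX3X, and the control guide sgGal4 is named after a yeast factor. Doxycycline at 50 ng/ml, which switches on the knockdown, is listed for every sample, and whether the day 0 cells had been exposed to it is not stated. Cells carrying either guide were collected at day 0, day 3 and day 14. At each time, RNA of the cytosolic lysate and RNA fragments protected by ribosomes were sequenced. Each of the 12 groups held 2 libraries, so the comparisons rest on 24 libraries. Nothing in the labels says that the replicates were separate cultures, or whether a line was a single clone. The p-values therefore measure the spread between these libraries only, which may be technical.

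Depth ran between 10266619 and 43256563 counts in RNA and between 6223963 and 15240512 in footprints, of which the 42 genes took 0.289 to 0.421% and 0.300 to 0.475%. Levels are CPM, a gene's counts per 1e+06 counts of its library, after scaling within each assay by the trimmed mean of M values. DDX3X itself checked the labels: its RNA stood at 38.9 and 33.7 CPM with sgDDX3 at day 3, against 184.9 and 173.5 CPM with sgGal4. At day 14 it stood at 133.8 and 101.3 CPM with sgDDX3, against 200.7 and 187.0 CPM with sgGal4, so the knockdown was partial at the later time. The log2 difference was -2.29 at day 3 and -0.72 at day 14 in RNA, and -2.04 and -0.61 in footprints. At day 0 mean DDX3X RNA was 180.0 CPM with sgDDX3, against 208.6 CPM with sgGal4. Mean DDX3X footprints at day 0 were 141.1 CPM with sgDDX3, against 152.3 CPM with sgGal4. Both sgDDX3 libraries were the lower in each assay, as for 19.2% of all genes in RNA and 19.3% in footprints, and neither difference passed. The footprint call at day 14 was lost on omitting sgDDX3 replicate 2, with a log2 difference of -0.56 and an adjusted p of 0.060 by edgeR. Of 8 erythroid markers, 7 were present in every library, GATA1 at 160.3 to 191.1 CPM of RNA among them, while HBG1 did not exceed 0.288 CPM. MPO, a granulocyte marker, had no RNA count in any of the 12 libraries, and EPCAM, an epithelial marker, stood at 23.1 to 32.4 CPM.

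Eukaryotic cells license an origin in G1, when the origin recognition complex (ORC), CDC6 and CDT1 load the ring-shaped MCM2-7 helicase onto DNA. At the start of S phase CDC45 and GINS join MCM2-7 to form the active helicase, and polymerase alpha with its primase, polymerases delta and epsilon, the clamp PCNA and its loader RFC then copy the strands. Many of these genes are transcribed at the G1 to S transition under control of E2F transcription factors, and proliferating leukaemia lines such as K562 express them strongly.

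E2F factors act through promoters, so the bases just before the start of each gene were searched for 3 kinds of motif. RefSeq promoter sequences on GRCh38.p14 were found for 36 of the 42 genes, and the 250 bases before the start were searched on both strands. An E2F word was any of TTTCCCGC, TTTCGCGC, TTTGCCGC and TTTGGCGC; a CCAAT box was CCAAT; a CHR, the element of many mitotic genes, was TTTGAA or TTCGAA. E2F words of opposite strands can overlap each other, and TTCGAA reads the same on both strands. An E2F word was present in 12 of the 36 promoters (33.33%), against 761 of the 27305 promoters of the whole table (2.79%). A CCAAT box was present in 23 of them (63.89%), against 33.04% of all promoters, and a CHR word in 1 (2.78%), against 14.59%. The promoters of the whole table were not limited to genes tested here and were not matched for base composition. The 4 promoters below belong to a helicase subunit with the most E2F words, to the licensing factor and the clamp whose RNA was lower with sgDDX3, and to MCM2, whose levels moved apart from those of the other subunits. Capitals mark E2F words, CCAAT boxes and CHR words, and overlapping words run together; each sequence reads 5′ to 3′ on the strand of its gene.
MCM6, chr2:135876444-135876693, minus strand: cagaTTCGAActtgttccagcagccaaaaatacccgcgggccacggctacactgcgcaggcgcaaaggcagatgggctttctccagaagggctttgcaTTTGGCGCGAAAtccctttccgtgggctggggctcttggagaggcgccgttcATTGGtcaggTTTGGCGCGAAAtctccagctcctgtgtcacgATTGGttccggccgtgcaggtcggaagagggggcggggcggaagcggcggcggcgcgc
CDT1, chr16:88803539-88803788, plus strand: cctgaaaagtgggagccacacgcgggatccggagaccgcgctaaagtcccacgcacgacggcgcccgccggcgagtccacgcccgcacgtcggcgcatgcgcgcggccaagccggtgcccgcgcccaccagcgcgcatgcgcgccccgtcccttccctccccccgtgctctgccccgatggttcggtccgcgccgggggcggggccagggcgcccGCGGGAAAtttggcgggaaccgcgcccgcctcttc
PCNA, chr20:5126623-5126872, minus strand: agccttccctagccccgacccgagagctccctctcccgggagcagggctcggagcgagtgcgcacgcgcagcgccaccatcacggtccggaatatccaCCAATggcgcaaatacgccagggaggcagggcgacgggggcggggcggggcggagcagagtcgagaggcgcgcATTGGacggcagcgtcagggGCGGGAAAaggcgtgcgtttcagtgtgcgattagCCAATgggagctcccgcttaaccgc
MCM2, chr3:127598161-127598410, plus strand: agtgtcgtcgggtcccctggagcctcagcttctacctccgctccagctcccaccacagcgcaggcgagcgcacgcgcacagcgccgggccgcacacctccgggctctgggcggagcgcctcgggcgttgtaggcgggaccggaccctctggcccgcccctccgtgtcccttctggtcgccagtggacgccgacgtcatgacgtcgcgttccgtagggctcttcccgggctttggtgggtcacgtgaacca
The MCM6 promoter holds 4 E2F words in 2 overlapping pairs, the CDT1 promoter 1, and the PCNA promoter 1 beside 3 CCAAT boxes. The MCM2 window holds none of the letters searched. A match is a description of the letters and not of binding, which was not measured here.

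At day 3 the RNA of 26 of the 42 genes was lower with sgDDX3 than with sgGal4, and that of 1 gene, CHAF1A, was higher (quasi-likelihood test of edgeR, Benjamini-Hochberg adjusted p under 0.05). Of all genes tested, 6.39% were lower and 7.68% were higher. The median log2 difference of the 42 genes was -0.33, against -0.0062 for all genes, and 40 of the 42 differences were negative. Both sgDDX3 libraries lay below both sgGal4 libraries for 34 of the 42 genes and above them for 2, whereas 27.4% and 26.3% of all genes lay below and above. The samples are bulk lysates, so fewer cells in S phase and less RNA per cell cannot be told apart. At day 0 no gene of the 42 passed in RNA or in footprints with edgeR or DESeq2 after adjustment, where edgeR called 0.00547% and 0.0101% of all genes, all of them higher, and 0% lower. At an unadjusted p of 0.05 edgeR counted 1 of the 42 lower and none higher in RNA, against 1.6% and 2.95% of all genes. In footprints it counted none in either direction, against 2.14% lower and 2.71% higher.

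Replicates differed in how far the genes lay below the control. Relative to the mean of sgGal4 at day 0, the median of the 42 genes stood at -0.58 and -0.43 in the sgDDX3 RNA libraries of day 3, against -0.18 and -0.09 in the sgGal4 libraries. At day 3 replicate 1 was the lower of the pair for 35 of 42 genes with sgDDX3 and for 33 of 42 with sgGal4, although the median of all genes differed by no more than 0.0025 on the log2 scale. Without sgDDX3 replicate 1, 11 genes were lower and 2 higher, against 4.22% and 5.97% of all genes. Fewer of the 42 were lower without either sgGal4 library, and more without sgDDX3 replicate 2. Fewer of all genes were called each time. A set of 10 genes passed under all 9 alternatives tried: CDT1, GINS2, PCNA, RFC2, PRIM1, PRIM2, POLD3, FEN1, RPA3 and TIPIN.

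**Figure D1:**
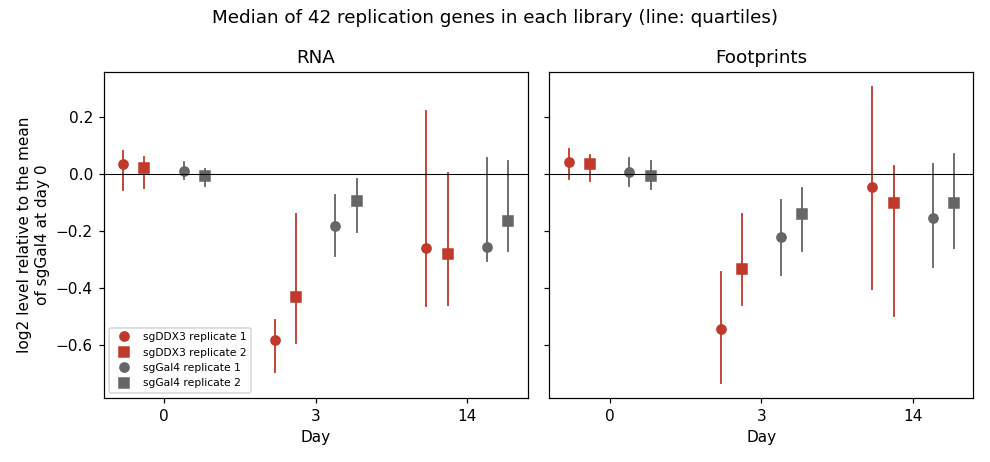
Median log2 level of the 42 replication genes in each library (y axis), relative to the mean of the sgGal4 libraries of day 0, by day (x axis) for RNA (left) and footprints (right); lines span the quartiles over the genes, circles are replicate 1 and squares replicate 2. The sgDDX3 RNA libraries of day 3 stand at -0.58 and -0.43, below the sgGal4 libraries of that day at -0.18 and -0.09.

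By day 14 as many of the 42 genes were higher as were lower in RNA. With sgDDX3, 5 genes were lower (CDT1, PRIM1, POLD2, RPA3 and TIPIN) and 5 were higher (MCM2, POLA1, CHAF1A, CLSPN and TIMELESS), against 6.18% and 8.44% of all genes. The median log2 difference was -0.04, against -0.0076 for all genes, and the libraries of the guides lay apart for 13 genes below and 11 above, against 25.6% and 26.3% of all genes. Relative to sgGal4 at day 0, the medians of the 42 genes stood at -0.26 and -0.28 in the sgDDX3 libraries, just below -0.26 and -0.17 in the sgGal4 libraries. The 5 genes lower at day 14 had also been lower at day 3; 20 of the genes lower at day 3 did not pass at day 14, and MCM2 passed in opposite directions at day 3 and day 14. The day 14 counts depended on single libraries, falling without sgDDX3 replicate 1 or either sgGal4 library. The calls over all genes fell without those libraries too. MCM2, CDT1, PRIM1 and CHAF1A passed under all 9 alternatives.

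Whether the guide difference itself moved between the days was tested directly. The day 14 difference exceeded the day 3 difference in 41 of 42 genes, with a median shift of 0.28 on the log2 scale against 0.0028 for all genes. Only MCM2 passed in this test, where 0.082% of all genes passed in the positive direction and 0.082% in the negative. At an unadjusted p of 0.05, 19 of the 42 genes had a positive shift and none a negative one, against 3.97% and 3.94% of all genes. After adjustment DESeq2 counted 2, both positive, against 0.12% of all genes positive and 0.0984% negative. More of the 42 passed without sgDDX3 replicate 2 of day 14 or of day 3, all positive, and so did more of all genes.

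**Figure D2:**
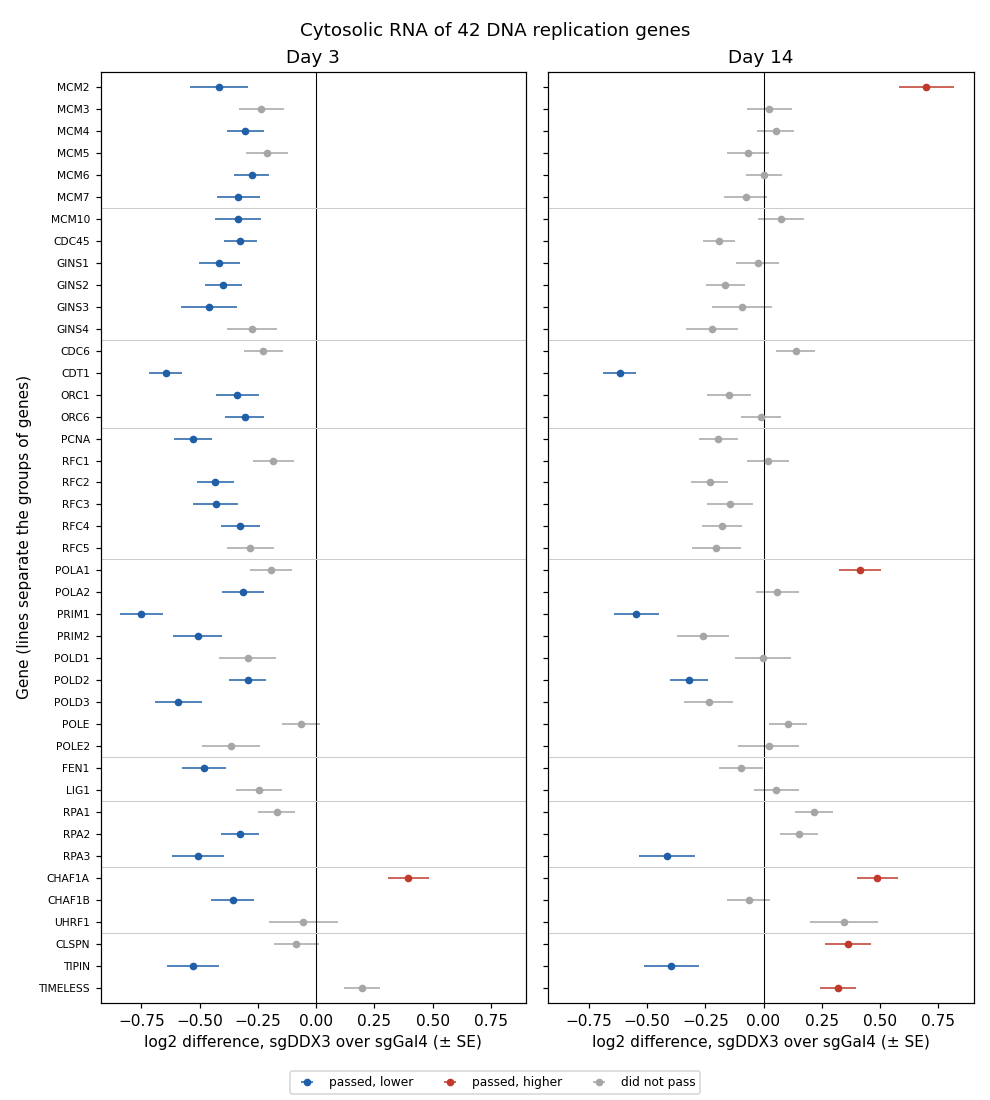
Log2 difference in RNA between sgDDX3 and sgGal4 (x axis, with SE) for each of the 42 genes (y axis, grouped by complex) at day 3 (left) and day 14 (right); coloured points passed at an adjusted p of 0.05. At day 3, 26 genes passed as lower and 1 as higher, and at day 14, 5 passed in each direction.

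Ribosome footprints count the fragments of mRNA held by ribosomes. At day 3, 2 genes were lower with sgDDX3, CDT1 and GINS2, and none was higher, against 2.25% and 1.55% of all genes. An unadjusted p under 0.05 gave 16 lower and 0 higher, against 8.85% and 10.1% of all genes. After adjustment, DESeq2 gave 4 lower and 0 higher, against 1.9% and 1.04% of all genes. The median log2 difference was -0.18, against 0.021 for all genes, and 37 of 42 differences were negative. The libraries of the guides lay apart for 24 genes below and 0 above, against 22.3% and 25.4% of all genes. The same replicate order was seen, with replicate 1 the lower of the day 3 pair for 34 of 42 genes with sgDDX3 and 32 of 42 with sgGal4. More of the 42 were lower without sgDDX3 replicate 2, and fewer without any other day 3 library. The share of all genes lower fell each time.

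At day 14, MCM2 and ORC1 were higher in footprints and POLD2 was lower, against 2.11% and 1.29% of all genes. The median was 0.07, against 0.0043 for all genes, and the libraries lay apart for 12 genes below and 17 above, against 20.6% and 23.5%. The change of the footprint difference between the days passed for none of the 42 genes with edgeR or DESeq2. Of all genes, 0.126% passed with edgeR, all positive. With DESeq2 0.374% passed as positive and 0.0354% as negative. At an unadjusted p of 0.05 by edgeR, the change was positive for 14 of the 42 and negative for none, against 3.98% and 3.06% of all genes. Some of the 42 passed without either sgDDX3 library of day 3, and more of all genes passed then too.

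**Figure D3:**
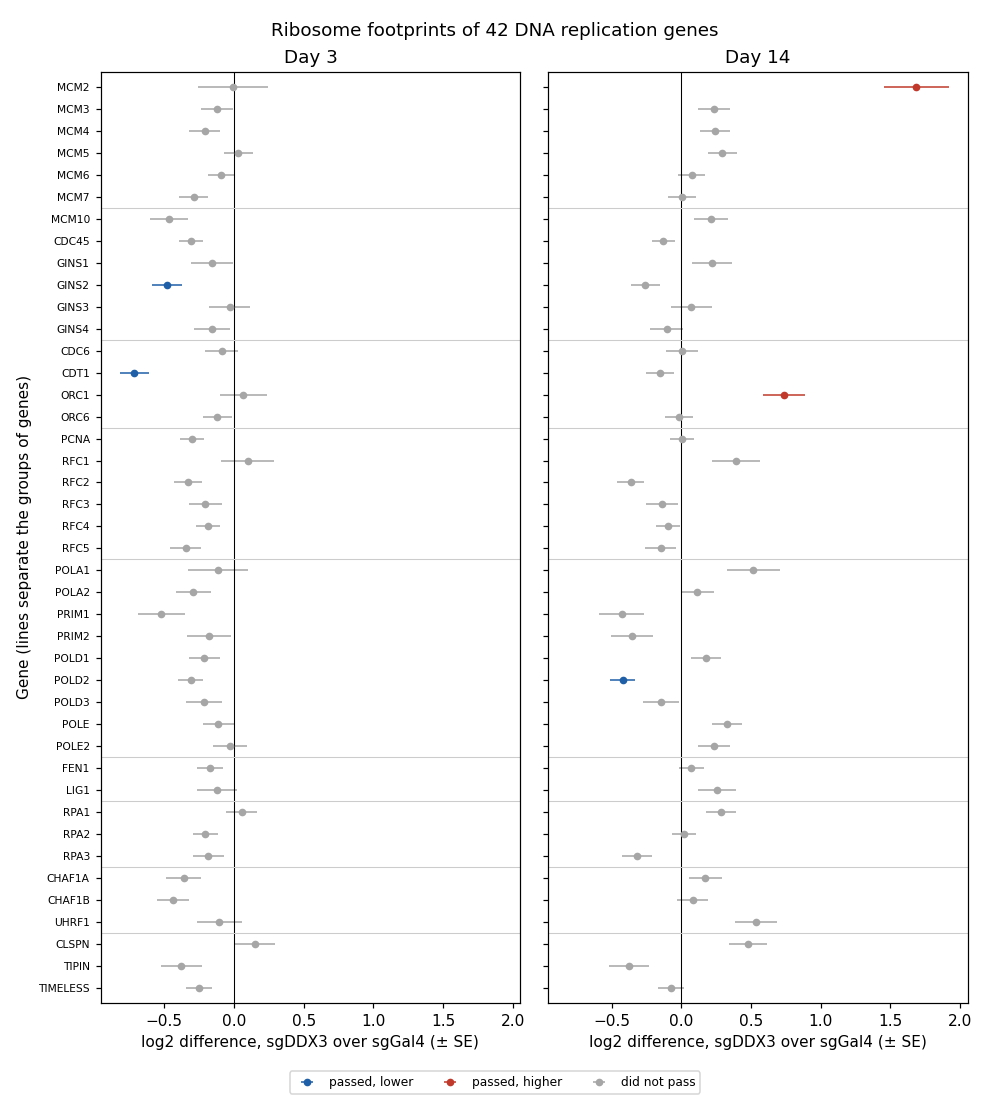
Log2 difference in ribosome footprints between sgDDX3 and sgGal4 (x axis, with SE) for each of the 42 genes (y axis, grouped by complex) at day 3 (left) and day 14 (right); coloured points passed at an adjusted p of 0.05. CDT1 and GINS2 passed as lower at day 3, MCM2 and ORC1 as higher and POLD2 as lower at day 14.

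All 4 origin licensing genes had negative RNA differences at day 3, from -0.65 to -0.23 on the log2 scale, and 3 of them passed. At day 14 their RNA differences ran from -0.62 to 0.14, and 1 passed, as lower. CDT1, which carries MCM2-7 to origins and is destroyed once S phase begins, was lower at both days in RNA. At day 3 it had 180.7 and 176.4 CPM of RNA in sgDDX3 cells, against 295.6 and 262.4 CPM in sgGal4 cells. At day 14 it had 189.8 and 188.9 CPM in sgDDX3 cells, against 293.1 and 288.1 CPM in sgGal4 cells. Both pairs lay apart, a 1.56-fold and a 1.53-fold lower level (log2 difference -0.65 ± 0.07 and -0.62 ± 0.07, SE; adjusted p 2.54e-06 and 6.08e-06, edgeR).

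CDT1 footprints fell with the RNA at day 3, to 88.3 and 84.3 CPM in sgDDX3 cells, against 151.7 and 131.7 CPM in sgGal4 cells (log2 difference -0.72, adjusted p 0.00313, edgeR). At day 14 they stood at 122.1 and 131.3 CPM in sgDDX3 cells, against 150.9 and 131.0 CPM in sgGal4 cells, so the groups overlapped. The footprint difference of -0.15 there did not pass (adjusted p 0.484, edgeR). The ratio of mean footprint to mean RNA level at day 14 was 0.669 in sgDDX3 cells, against 0.485 in sgGal4 cells, and at day 3 it was 0.483 in sgDDX3 cells, against 0.508 in sgGal4 cells. Translational efficiency, the guide difference in footprints less that in RNA in 1 model of all 24 libraries, was higher by 0.47 on the log2 scale at day 14 (adjusted p 0.0384, edgeR). That call was lost without any 1 of 7 of the 8 libraries of day 14, at log2 differences of 0.37 to 0.51; it held without sgGal4 footprint replicate 1. It was also lost with no low-count filter (0.46, adjusted p 0.0903, edgeR) and with only the libraries compared (0.48, adjusted p 0.174).

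ORC1, the ATPase subunit of ORC that is itself cell-cycle regulated, differed between assays. Its RNA stood at 51.1 and 52.5 CPM in sgDDX3 cells at day 3, against 67.0 and 63.4 CPM in sgGal4 cells (log2 difference -0.34, adjusted p 0.0175, edgeR). At day 14 it stood at 59.1 and 69.5 CPM in sgDDX3 cells, against 67.3 and 74.3 CPM in sgGal4 cells, with overlapping groups. ORC1 footprints at day 14 were 71.1 and 61.7 CPM in sgDDX3 cells, against 37.4 and 42.5 CPM in sgGal4 cells, clear of each other. The footprint difference was 0.74 ± 0.15 (SE) on the log2 scale and the efficiency difference 0.89 ± 0.18, with adjusted p of 0.0193 and 0.00764 by edgeR. At day 3 the footprints were 26.9 and 41.9 CPM in sgDDX3 cells, against 31.5 and 34.9 CPM in sgGal4 cells, with the replicates of sgDDX3 on either side of the control.

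Single libraries mattered for ORC1. Its RNA call at day 3 was lost on omitting sgDDX3 replicate 1 (log2 difference -0.32) and without sgGal4 replicate 1 (-0.29). Its footprint call at day 14 was lost on omitting sgDDX3 replicate 1 (0.62, adjusted p 0.167, edgeR) and without sgGal4 replicate 1 (0.65, adjusted p 0.115). The efficiency call was lost without those same footprint libraries (0.77 and 0.80) and without sgGal4 RNA replicate 2 (0.79), at adjusted p up to 0.0792. ORC1 overlaps PRPF38A in the annotation and has a named pseudogene, so its counts are uncertain.

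The other licensing factors were ORC6, the small ORC subunit, and CDC6, the loading ATPase. ORC6 RNA had 47.2 and 52.9 CPM in sgDDX3 cells at day 3, against 60.1 and 63.2 CPM in sgGal4 cells, and a log2 difference of -0.31 (adjusted p 0.0154, edgeR). That call was lost on omitting sgDDX3 replicate 1 (-0.22), sgGal4 replicate 1 (-0.35) or sgGal4 replicate 2 (-0.27). CDC6 did not pass at either day, with log2 differences in RNA of -0.23 and 0.14.

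**Figure D4:**
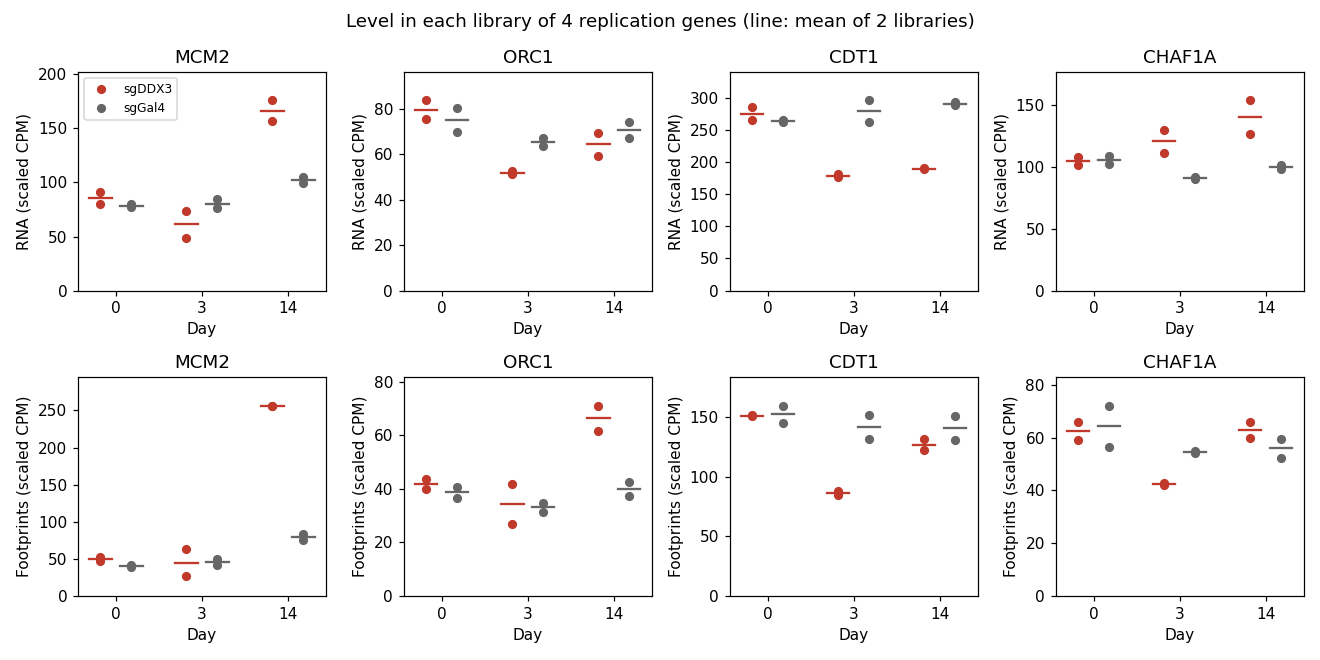
RNA (top) and footprint (bottom) levels in CPM (y axes, starting at 0) of MCM2, ORC1, CDT1 and CHAF1A in every library, by day (x axes), with sgDDX3 in red and sgGal4 in grey and a line at the mean of 2 libraries. MCM2 footprints reach 256.5 and 255.6 CPM in sgDDX3 cells at day 14, against 75.1 and 84.1 CPM in sgGal4 cells.

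The MCM2-7 helicase is a ring of 6 subunits, and MCM2 moved apart from the other 5. MCM2 RNA at day 3 had 49.1 and 73.6 CPM in sgDDX3 cells, against 76.3 and 84.7 CPM in sgGal4 cells. By day 14 it had 175.8 and 156.7 CPM in sgDDX3 cells, against 99.1 and 105.2 CPM in sgGal4 cells. The groups lay apart at both days, in opposite directions: the log2 difference was -0.42 ± 0.12 at day 3 and 0.70 ± 0.12 at day 14 (SE; adjusted p 0.0267 and 0.000369, edgeR).

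The shift between the days, 1.12 ± 0.17 (SE, adjusted p 0.00353, edgeR), passed under all 13 alternatives and ranged from 0.82 to 1.40. The lower level at day 3 was lost on omitting sgDDX3 replicate 1, at -0.12, without sgGal4 replicate 1, at -0.50, and without sgGal4 replicate 2, at -0.34, with adjusted p of 0.0568 to 0.545 by edgeR, and with DESeq2, at -0.40 (adjusted p 0.129). At day 0, MCM2 RNA had been 91.6 and 80.1 CPM in sgDDX3 cells, against 77.3 and 80.1 CPM in sgGal4 cells. MCM2 footprints at day 0 averaged 49.7 CPM in sgDDX3 cells, against 39.8 CPM in sgGal4 cells. Both sgDDX3 footprint libraries were the higher, and the difference did not pass.

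MCM2 footprints showed the widest guide difference among the 42 genes. At day 14 they stood at 256.5 and 255.6 CPM in sgDDX3 cells, against 75.1 and 84.1 CPM in sgGal4 cells, a 3.22-fold higher level (log2 difference 1.69 ± 0.23, SE; adjusted p 0.00215, edgeR) that passed under all 9 alternatives. At day 3 they stood at 26.2 and 63.0 CPM in sgDDX3 cells, against 42.2 and 49.2 CPM in sgGal4 cells, so the sgDDX3 replicates fell on either side of the control. The ratio of mean footprint to mean RNA level at day 14 was 1.54 in sgDDX3 cells, against 0.779 in sgGal4 cells. The efficiency difference of 0.99 ± 0.26 at day 14 passed with an adjusted p of 0.0476 by edgeR, but was lost without any single library of day 14, at 0.91 to 1.08, and with DESeq2 (adjusted p 0.194). MCM2 overlaps the long non-coding RNA gene LOC107986126.

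The 5 other subunits differed by 0.0046 to 0.29 on the log2 scale in day 14 footprints and by -0.08 to 0.05 in day 14 RNA, and none passed. At day 3 the RNA of MCM4, MCM6 and MCM7 was lower. MCM4 had 110.7 and 132.0 CPM in sgDDX3 cells, against 146.0 and 152.3 CPM in sgGal4 cells (log2 difference -0.30). MCM6 had 102.8 and 115.2 CPM in sgDDX3 cells, against 128.9 and 134.6 CPM in sgGal4 cells (-0.28). MCM7 had 192.5 and 236.6 CPM in sgDDX3 cells, against 263.6 and 275.4 CPM in sgGal4 cells (-0.33). These 3 pairs did not overlap, and adjusted p were 0.0119, 0.0162 and 0.0187 by edgeR. All 3 calls were lost on omitting sgDDX3 replicate 1, at -0.18, -0.19 and -0.19, and without sgGal4 replicate 2, at -0.27, -0.24 and -0.30; those of MCM6 and MCM7 were also lost without sgGal4 replicate 1, at -0.31 and -0.37. MCM3 and MCM5 differed by -0.24 and -0.21 and did not pass.

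CDC45, MCM10 and the GINS proteins turn the loaded ring into a moving helicase. In RNA at day 3, 5 of these 6 genes were lower, and none passed at day 14. GINS2 had 40.8 and 42.8 CPM of RNA in sgDDX3 cells at day 3, against 52.4 and 58.1 CPM in sgGal4 cells (log2 difference -0.40 ± 0.08, SE; adjusted p 0.00176, edgeR). Its footprints at day 3 were 34.9 and 38.1 CPM in sgDDX3 cells, against 50.5 and 51.7 CPM in sgGal4 cells (-0.48 ± 0.11, adjusted p 0.027, edgeR). Both assays were therefore apart, although the footprint call was lost without any single day 3 footprint library, at -0.42 to -0.56 and adjusted p of 0.056 to 0.139, and with only the libraries compared (-0.50, adjusted p 0.0778, edgeR). GINS2 overlaps GSE1 in the annotation.

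CDC45 RNA at day 3 had 176.1 and 195.5 CPM in sgDDX3 cells, against 225.2 and 239.7 CPM in sgGal4 cells (log2 difference -0.33, adjusted p 0.00269, edgeR). GINS1 had 32.9 and 33.6 CPM in sgDDX3 cells, against 41.4 and 48.0 CPM in sgGal4 cells (-0.42, adjusted p 0.00282). GINS3 had 19.7 and 23.6 CPM in sgDDX3 cells, against 26.4 and 33.3 CPM in sgGal4 cells (-0.46, adjusted p 0.0121). The sgDDX3 libraries were the lower in all 3 genes. Without sgDDX3 replicate 1 CDC45 (-0.25) and GINS3 (-0.31) were lost, and without sgGal4 replicate 2 CDC45 (-0.28), GINS1 (-0.32) and GINS3 (-0.31) were lost. MCM10 passed at -0.34 in RNA and was lost on omitting sgDDX3 replicate 1 (-0.13) or sgGal4 replicate 1 (-0.26), and with only the libraries compared (-0.33, adjusted p 0.0558, edgeR), while GINS4 did not pass (-0.27).

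PCNA, the sliding clamp that holds polymerases on DNA, and RFC, the 5-subunit loader that opens it, were lower at day 3 in RNA for 4 of 6 genes. PCNA had 92.0 and 103.7 CPM in sgDDX3 cells, against 130.5 and 151.7 CPM in sgGal4 cells, a 1.44-fold lower level (log2 difference -0.53 ± 0.08, SE; adjusted p 0.000161, edgeR). RFC2 had 43.4 and 43.8 CPM in sgDDX3 cells, against 59.1 and 58.3 CPM in sgGal4 cells (-0.43, adjusted p 0.000686). Both genes kept their call under all 9 alternatives, and none of the 6 genes passed at day 14.

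PCNA footprints at day 3 were 257.3 and 283.3 CPM in sgDDX3 cells, against 332.2 and 334.2 CPM in sgGal4 cells, apart but short of the threshold (log2 difference -0.30, adjusted p 0.0704, edgeR). At day 14 they were 321.8 and 315.9 CPM in sgDDX3 cells, against 319.9 and 316.3 CPM in sgGal4 cells, within each other's range. PCNA overlaps PCNA-AS1 and has 3 named pseudogenes, so its counts are uncertain.

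RFC3 RNA at day 3 had 46.0 and 49.8 CPM in sgDDX3 cells, against 60.9 and 68.4 CPM in sgGal4 cells (log2 difference -0.43, adjusted p 0.00373, edgeR). RFC4 had 39.9 and 43.4 CPM in sgDDX3 cells, against 50.5 and 53.6 CPM in sgGal4 cells (-0.32, adjusted p 0.010). Both were lower in each sgDDX3 library, and both calls were lost on omitting sgDDX3 replicate 1, at -0.37 and -0.26, and without sgGal4 replicate 2, at -0.35 and -0.28. RFC1, the large subunit, and RFC5 did not pass, at -0.18 and -0.28.

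Primase lays down the RNA primer that starts each strand, and its catalytic subunit PRIM1 had the most negative RNA difference of the 42 genes at day 3. It had then 35.9 and 33.0 CPM in sgDDX3 cells, against 56.7 and 60.6 CPM in sgGal4 cells. Its day 14 level was 33.4 and 41.8 CPM in sgDDX3 cells, against 53.6 and 55.7 CPM in sgGal4 cells. The pairs lay apart on both days, 1.68-fold and 1.46-fold lower (log2 difference -0.75 ± 0.09 and -0.55 ± 0.10, SE; adjusted p 9.26e-06 and 0.000466, edgeR), under all 9 alternatives.

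PRIM1 footprints were 31.9 and 32.7 CPM in sgDDX3 cells at day 3, against 46.3 and 46.6 CPM in sgGal4 cells. They did not overlap, but the log2 difference of -0.52 ± 0.17 did not pass (adjusted p 0.105, edgeR). Its efficiency difference was 0.21 at day 3 and 0.12 at day 14, neither past the threshold.

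PRIM2, the regulatory primase subunit, had 16.6 and 15.5 CPM of RNA in sgDDX3 cells at day 3, against 22.1 and 24.4 CPM in sgGal4 cells (log2 difference -0.51, adjusted p 0.00224, edgeR). POLD3, an accessory subunit of polymerase delta, had 22.4 and 24.5 CPM in sgDDX3 cells, against 34.7 and 35.4 CPM in sgGal4 cells (-0.59, adjusted p 0.000389). Both were lower in each sgDDX3 library at day 3 under all 9 alternatives, and neither passed at day 14.

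POLA1, the catalytic subunit of polymerase alpha, went the other way at day 14. Its RNA had 47.1 and 43.5 CPM in sgDDX3 cells, against 31.1 and 36.1 CPM in sgGal4 cells (log2 difference 0.41 ± 0.09, SE; adjusted p 0.00357, edgeR). The libraries did not overlap, and the call was lost only without sgGal4 replicate 1 (0.34, adjusted p 0.0514). At day 3 it had 29.5 and 27.5 CPM in sgDDX3 cells, against 33.1 and 32.5 CPM in sgGal4 cells, and did not pass.

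Of the remaining polymerase subunits, POLD2 was lower in RNA at both days (log2 difference -0.29 and -0.32) and in footprints at day 14 (-0.42, adjusted p 0.0202, edgeR), and POLA2 was lower in RNA at day 3 (-0.31). These calls were less stable. POLA2 was lost on omitting sgDDX3 replicate 1 (-0.15), on omitting either sgGal4 library (-0.33 and -0.29), and with only the libraries compared (-0.31, adjusted p 0.0501, edgeR). POLD2 was lost at day 3 without the same libraries (-0.20, -0.33 and -0.26), at day 14 without sgDDX3 replicate 2 (-0.25) or either sgGal4 library (-0.30 and -0.33), and in footprints without either sgDDX3 library (-0.40 and -0.46) or sgGal4 replicate 1 (-0.33) or with only the libraries compared (-0.42). POLD1, POLE and POLE2, the catalytic subunits of polymerases delta and epsilon and the second epsilon subunit, did not pass in either assay, with RNA differences at day 3 of -0.29, -0.06 and -0.36.

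FEN1 trims the flap of each Okazaki fragment and LIG1 seals the nick. FEN1 RNA at day 3 had 48.6 and 55.5 CPM in sgDDX3 cells, against 67.2 and 77.8 CPM in sgGal4 cells, and the pairs lay apart (log2 difference -0.48 ± 0.09, SE; adjusted p 0.00139, edgeR). The call held under all 9 alternatives, and at day 14 the difference was -0.10 and did not pass. LIG1 did not pass, at -0.25 and 0.05.

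RPA, the trimer that coats single-stranded DNA, was lower at day 3 in its smaller subunits RPA2 and RPA3. RPA3 RNA had 20.5 and 19.2 CPM in sgDDX3 cells at day 3, against 27.3 and 30.1 CPM in sgGal4 cells, and 16.8 and 22.7 CPM in sgDDX3 cells at day 14, against 25.7 and 26.7 CPM in sgGal4 cells. The log2 difference was -0.51 at day 3, kept under all 9 alternatives, and -0.42 at day 14 (adjusted p 0.00356 and 0.0229, edgeR). The day 14 call was lost on omitting sgDDX3 replicate 1 (-0.21) or either sgGal4 library (-0.43 and -0.38), and with only the libraries compared (-0.42, adjusted p 0.0883, edgeR).

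RPA2 had 49.4 and 56.6 CPM of RNA in sgDDX3 cells at day 3, against 64.6 and 67.5 CPM in sgGal4 cells (log2 difference -0.33, adjusted p 0.00842, edgeR). It was lower in both libraries, but lost on omitting sgDDX3 replicate 1 (-0.22) or sgGal4 replicate 2 (-0.29). RPA1, the large subunit, did not pass, at -0.17 and 0.22. RPA3 overlaps UMAD1, and RPA2 and RPA3 have named pseudogenes.

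The chromatin assembly factor CAF-1 deposits histones behind the fork, and its subunits CHAF1A and CHAF1B moved in opposite directions in RNA at day 3. Neither passed in footprints at day 3, where the log2 differences were -0.36 and -0.44. CHAF1A RNA at day 3 had 111.2 and 129.7 CPM in sgDDX3 cells, against 90.1 and 92.1 CPM in sgGal4 cells. Its RNA at day 14 had 153.5 and 126.7 CPM in sgDDX3 cells, against 101.4 and 98.5 CPM in sgGal4 cells. It was higher in every sgDDX3 library (log2 difference 0.40 ± 0.09 and 0.49 ± 0.09, SE; adjusted p 0.00428 and 0.000744, edgeR). The day 3 call was lost on omitting sgDDX3 replicate 2 (0.29) or sgGal4 replicate 1 (0.38), and the day 14 call held under all 9 alternatives.

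CHAF1A footprints did not follow its RNA at day 3. They stood at 41.96 and 42.83 CPM in sgDDX3 cells at day 3, against 54.8 and 54.3 CPM in sgGal4 cells, a log2 difference of -0.36 that did not pass (adjusted p 0.13, edgeR). The ratio of mean footprint to mean RNA level at day 3 was 0.352 in sgDDX3 cells, against 0.599 in sgGal4 cells, and at day 14 it was 0.449 in sgDDX3 cells, against 0.560 in sgGal4 cells. The efficiency difference at day 3 was -0.78 ± 0.16 (SE, adjusted p 0.00215, edgeR), the lowest of the 42 genes, and it passed under all 14 alternatives, between -0.88 and -0.67. At day 14 it was -0.31 and did not pass. Mean CHAF1A footprints at day 14 were 62.9 CPM in sgDDX3 cells, against 55.9 CPM in sgGal4 cells. Both sgDDX3 libraries were the higher, as in RNA, but this difference did not pass. CHAF1A overlaps UBXN6 and a microRNA gene in the annotation.

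CHAF1B had 31.9 and 33.6 CPM of RNA in sgDDX3 cells at day 3, against 40.0 and 44.2 CPM in sgGal4 cells (log2 difference -0.36, adjusted p 0.0104, edgeR). It was the lower in both libraries, and was lost on omitting sgDDX3 replicate 1 (-0.32) or sgGal4 replicate 2 (-0.29). UHRF1, which recruits the maintenance DNA methyltransferase to newly copied DNA, did not pass, at -0.05 and 0.34.

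TIMELESS and TIPIN form a complex that steadies the fork, and CLSPN (claspin) relays checkpoint signals there. TIPIN RNA at day 3 had 11.4 and 11.3 CPM in sgDDX3 cells, against 16.3 and 16.6 CPM in sgGal4 cells, and at day 14 it had 11.7 and 13.5 CPM in sgDDX3 cells, against 15.5 and 17.3 CPM in sgGal4 cells. It was lower on both days (log2 difference -0.53 and -0.40; adjusted p 0.00269 and 0.0291, edgeR). The day 3 call held under all 9 alternatives; the day 14 call was lost on omitting sgDDX3 replicate 1 (-0.29) or sgGal4 replicate 2 (-0.29), with DESeq2 (adjusted p 0.0768), and with only the libraries compared (adjusted p 0.113).

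TIMELESS, its partner, had 192.4 and 168.2 CPM of RNA in sgDDX3 cells at day 14, against 148.5 and 140.9 CPM in sgGal4 cells (log2 difference 0.32, adjusted p 0.00841, edgeR). Its RNA was the higher there, but the call was lost on omitting sgDDX3 replicate 1 (0.22) or sgGal4 replicate 2 (0.28), and with only the libraries compared (0.32, adjusted p 0.0546, edgeR). TIMELESS footprints at day 3 were 78.4 and 82.5 CPM in sgDDX3 cells, against 87.7 and 104.5 CPM in sgGal4 cells, and efficiency was lower by -0.47 on the log2 scale (adjusted p 0.0226, edgeR). That call was lost without 6 of the 8 libraries of day 3, namely sgDDX3 RNA replicate 2, both sgGal4 RNA libraries, both sgDDX3 footprint libraries and sgGal4 footprint replicate 2, at -0.32 to -0.49, and with only the libraries compared (-0.46).

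CLSPN RNA at day 14 had 100.3 and 85.7 CPM in sgDDX3 cells, against 73.3 and 71.6 CPM in sgGal4 cells (log2 difference 0.36, adjusted p 0.0156, edgeR). Both sgDDX3 libraries were higher, and the call was lost on omitting sgDDX3 replicate 1 (0.25) or either sgGal4 library (0.39 and 0.34). At day 3 its difference was -0.08 and did not pass.

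Translational efficiency was also read over the whole set. At day 3 it was lower for 2 of 42 genes, CHAF1A and TIMELESS, and higher for none, against 4.87% and 0.532% of all genes. By day 14 efficiency was higher for 3, MCM2, ORC1 and CDT1, and lower for none, against 0.39% and 1.33%. At an unadjusted p of 0.05 the counts were 2 lower and 3 higher at day 3, and 1 lower and 4 higher at day 14. The shares of all genes at that threshold were 10.7% lower and 6.38% higher at day 3, and 6.89% lower and 5.27% higher at day 14. After adjustment DESeq2 called 2 lower and none higher at day 3, against 4.5% and 0.559% of all genes. At day 14 it called 2 higher and none lower, against 0.337% and 1.52%. The median log2 difference was 0.11 and 0.12, against 0.031 and 0.029 for all genes. Counts of the 42 genes moved on leaving out single libraries, and so did the calls over all genes. The change of efficiency between the days passed for none of the 42 with edgeR or DESeq2. Of all genes, 0.0269% passed with edgeR, all positive, and with DESeq2 0.0943% passed as positive and 0.00673% as negative. At an unadjusted p of 0.05 edgeR counted 2 of the 42, both positive, against 3.46% of all genes positive and 1.77% negative. None passed at day 0 by either tool, against 0.00673% of all genes, or at an unadjusted p of 0.05, against 1.29% lower and 1.35% higher.

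**Figure D5:**
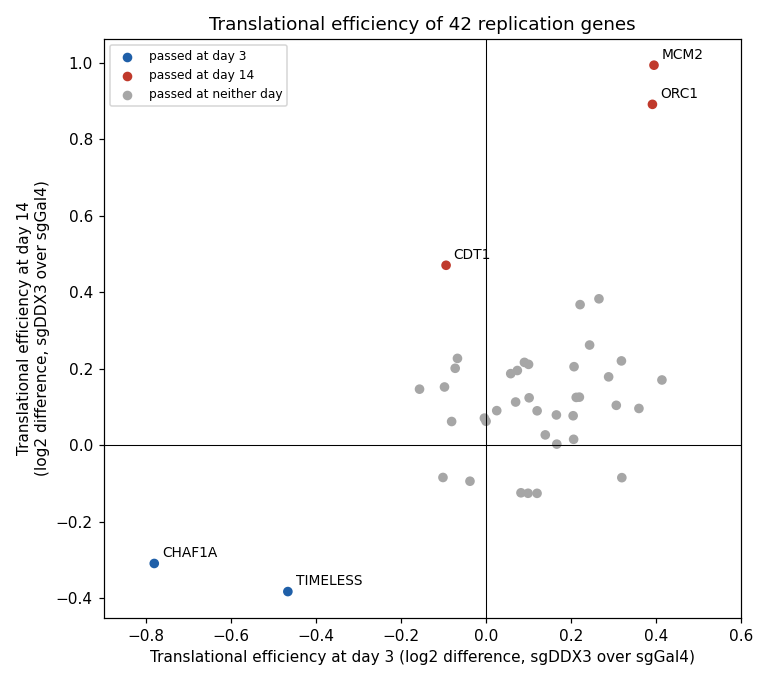
Translational efficiency differences between sgDDX3 and sgGal4 (log2) at day 3 (x axis) and day 14 (y axis), 1 point for each of the 42 genes; blue points passed at day 3 and red points at day 14. CHAF1A and TIMELESS lie at -0.78 and -0.47 on the day 3 axis, and MCM2, ORC1 and CDT1 at 0.99, 0.89 and 0.47 on the day 14 axis.

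Within each guide, the genes were also compared with day 0. These comparisons share libraries with those above and with each other, so they are given side by side. In sgDDX3 cells the RNA of 35 of 42 genes was lower at day 3 than at day 0 and none was higher, against 9.42% and 11.1% of all genes. In sgGal4 cells 6 were lower and none higher, against 2.27% and 3.41%. DESeq2 counted 35 lower and none higher with sgDDX3, against 7.81% and 9% of all genes. With sgGal4 it counted 7 and none, against 2.24% and 2.36%. At an unadjusted p of 0.05 the counts were 37 lower and 1 higher with sgDDX3, against 15.4% and 16.5% of all genes. With sgGal4 they were 18 and none, against 9.82% and 10.8%. The median change was -0.52 in sgDDX3 cells and -0.14 in sgGal4 cells on the log2 scale.

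By day 14, 22 genes were lower and 7 higher than at day 0 in sgDDX3 cells (12.8% and 13.4% of all genes), and 14 lower and 2 higher in sgGal4 cells (8.55% and 7.7%). PCNA was lower in both: in sgDDX3 cells its RNA had 187.8 and 187.8 CPM at day 0, 92.0 and 103.7 CPM at day 3 and 108.7 and 116.2 CPM at day 14. In sgGal4 cells it had 205.5 and 201.1 CPM at day 0, 130.5 and 151.7 CPM at day 3 and 123.3 and 133.2 CPM at day 14. The control cells thus had less PCNA RNA at both later days than at day 0 (log2 change -0.53 and -0.66, adjusted p 0.000567 and 2.12e-05, edgeR), as did sgDDX3 cells (-0.95 and -0.74, adjusted p 8.95e-08 and 2.06e-06).

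These counts depended on single libraries. Calls over all genes also moved without single libraries, here and in the footprints below. With sgDDX3 at day 3, fewer of these genes were lower without replicate 1 of day 3 or either day 0 library. More were lower without replicate 2 of day 3. With sgGal4 at day 3, fewer were lower without day 3 replicate 1 or either day 0 library. As many were lower without day 3 replicate 2. At day 14 fewer were called with either guide, whichever library was left out. Fewer of all genes were called in each of these fits but that of sgDDX3 at day 14 without replicate 2 of day 14. More of all genes were called there.

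In footprints, 21 genes were lower and none higher at day 3 than at day 0 in sgDDX3 cells (3.83% and 3.73% of all genes), and 3 lower and none higher in sgGal4 cells (0.561% and 0.703%). Those 3 were CDC45, PCNA and FEN1. DESeq2 counted 20 lower and none higher with sgDDX3, against 2.75% and 2.61% of all genes. With sgGal4 it counted 3 and none, against 0.637% and 0.824%. At an unadjusted p of 0.05, 31 were lower and none higher with sgDDX3, against 11% and 11.5% of all genes, and 15 and none with sgGal4, against 7.18% and 7.53%. At day 14 the counts were 12 lower and 4 higher in sgDDX3 cells (3.09% and 4.69%), and 5 lower and 1 higher in sgGal4 cells (0.93% and 1.54%). MCM2 was the 1 gene higher in sgGal4 cells, at a log2 change of 1.00, against 2.37 in sgDDX3 cells; 1 library left out ended the sgGal4 call whichever of the 4 it was, since no gene was then higher. Without 1 library fewer of these genes were lower at day 3 with either guide, but more with sgDDX3 without replicate 2 of day 3. The share of all genes lower at day 3 fell each time. At day 14 fewer of these genes were called with either guide, whichever library was left out, and so were fewer of all genes.

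Other genes of DNA replication, a list of 36 licensing, fork and chromatin factors not among the 42, were read in the same fits. In RNA at day 3, 11 of the 36 were lower and 2 higher, against 6.39% and 7.68% of all genes. At day 14, 2 were lower and 7 higher, against 6.18% and 8.44%. Their median log2 differences were -0.10 and 0.03. GMNN, which encodes geminin, the inhibitor of CDT1, had 39.3 and 46.2 CPM in sgDDX3 cells at day 3, against 59.0 and 69.0 CPM in sgGal4 cells (log2 difference -0.58, adjusted p 0.000225, edgeR). It was lower in both sgDDX3 libraries, as CDT1 was.

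TOPBP1, a scaffold for helicase activation and checkpoint signalling, had RNA and footprints on opposite sides of the control. Its RNA had 224.0 and 216.3 CPM in sgDDX3 cells at day 3, against 135.8 and 129.9 CPM in sgGal4 cells. Its footprints had 24.2 and 26.1 CPM in sgDDX3 cells, against 48.6 and 49.4 CPM in sgGal4 cells. The log2 differences were 0.73 and -0.96, and that in efficiency was -1.71 ± 0.16 at day 3 and -0.90 ± 0.16 at day 14 (SE; adjusted p 1.35e-07 and 0.00177, edgeR). These 4 calls held under every alternative tried.

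SSRP1, a subunit of the histone chaperone FACT, showed the same at day 3: 339.6 and 373.2 CPM of RNA in sgDDX3 cells, against 251.0 and 248.3 CPM in sgGal4 cells, and 193.4 and 199.4 CPM of footprints in sgDDX3 cells, against 262.5 and 282.2 CPM in sgGal4 cells. The RNA was higher and the footprints lower in both libraries. Its efficiency difference of -1.003 ± 0.11 (SE, adjusted p 1.36e-06, edgeR) held under all 14 alternatives. Its footprint call held under 6 of 9 alternatives, and those that lost it included leaving out either sgGal4 library (-0.55 and -0.43). Over the 36 genes, efficiency was lower for 2 at day 3 and 2 at day 14, TOPBP1 and SSRP1 on both days, against 4.87% and 1.33% of all genes. It was higher for none, against 0.532% and 0.39%. Footprints of 4 of the 36 were higher at day 14 and those of none lower, against 2.11% and 1.29%. The SSRP1 efficiency call at day 14 (-0.51, adjusted p 0.0159, edgeR) held under 8 of 14 alternatives. Those that lost it included leaving out sgDDX3 RNA replicate 1, either sgGal4 RNA library, sgDDX3 footprint replicate 2 or sgGal4 footprint replicate 1, at -0.43 to -0.52.

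Of a list of 28 regulators of the G1 to S transition, 27 could be tested in footprints. In RNA at day 3 the list was lower for 8 and higher for 3, against 6.39% and 7.68% of all genes. In footprints at day 3 it was lower for 10 and higher for none, against 2.25% and 1.55%. In efficiency at day 3 it was lower for 5 and higher for 1, against 4.87% and 0.532%. E2F4, a member of the E2F family that acts mainly as a repressor, had 114.0 and 132.3 CPM of RNA in sgDDX3 cells at day 3, against 85.8 and 86.8 CPM in sgGal4 cells (log2 difference 0.51), and its efficiency difference was -1.19 ± 0.16 (SE, adjusted p 1.39e-05, edgeR). E2F1, an activator of the family, had 6.55 and 5.67 CPM of footprints in sgDDX3 cells, against 11.98 and 11.81 CPM in sgGal4 cells, with an efficiency difference of -1.19 ± 0.19 (adjusted p 0.000123). TFDP1, the dimer partner of E2F proteins, had 45.3 and 51.5 CPM of footprints in sgDDX3 cells, against 77.3 and 83.7 CPM in sgGal4 cells, and an efficiency difference of -0.82 ± 0.13 (adjusted p 8.6e-05). These 3 efficiency calls held under all 14 alternatives. E2F1 RNA did not pass at day 3 (log2 difference 0.20, adjusted p 0.121, edgeR).

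A list of 30 mitotic genes was lower for 21 and higher for none in RNA at day 3, against 6.39% and 7.68% of all genes. The median log2 difference was -0.34, beside -0.33 for the 42 replication genes. AURKB, NDC80 and MAD2L1, a kinase and a kinetochore protein of the spindle and a checkpoint protein, differed by -0.68, -0.56 and -0.48 (adjusted p 2.19e-05, 0.000202 and 0.000585, edgeR), and each held under all 9 alternatives. In footprints 2 of the 29 tested were lower and none higher at day 3, against 2.25% and 1.55% of all genes. At day 14 footprints of 3 were higher and of none lower, against 2.11% and 1.29%. The RNA change between days passed for 2 of the 30, both positive, against 0.082% of all genes. The share of cells in each phase of the cycle was not measured here, and its part in these differences was not tested.

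Across the 42 genes, 12 passed in no guide comparison of RNA or footprints at day 3 or day 14: MCM3, MCM5, CDC6, GINS4, RFC1, RFC5, POLD1, POLE, POLE2, LIG1, RPA1 and UHRF1. A p that misses the threshold does not show that they were alike in both guides. In all, 23 of the 42 overlap another annotated gene and 9 have a named pseudogene. How reads shared between such genes were counted is not given in the sources used here, so their values are uncertain. Coordinates of all genes are from RefSeq on GRCh38.p14: MCM2 lies on chromosome 3 from 127598411 to 127622436, CDT1 on chromosome 16 from 88803789 to 88809258, ORC1 on chromosome 1 from 52372829 to 52409503, and CHAF1A on chromosome 19 from 4402640 to 4450830.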

How the data were processed

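Cytosolic RNA-seq and ribosome footprints of 24 K562 libraries were analysed from 2 tables of raw counts per gene that the authors deposited. STAR 2.7.5a, Bowtie2 2.4.1, cutadapt 3.4, DESeq2 and the build GRCh38 are named, with no role, per the submitters' processing notes. The RNA-seq kit was directional per the labels' protocols; the strand setting used in counting, and how multi-mapping reads were treated, is not given in the sources used here. Shared reads of overlapping genes or pseudogenes could move single values. Of 58037 rows, 45 Y copies of pseudoautosomal genes were left out.

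Guide differences were sgDDX3 minus sgGal4, and efficiency was the guide by assay interaction over all 24 libraries. Fits used edgeR 4.0.16 (R 4.3.3, limma 3.58.1): TMM scaling, genes kept by filterByExpr with a minimum count of 10, the quasi-likelihood test with all 12 libraries of an assay, and Benjamini-Hochberg adjustment over all genes tested at 0.05. What edgeR names the biological coefficient of variation, here a spread between libraries that may be technical, was 6.13% in RNA and 9.99% in footprints. The fits were tested on simulated data. Alternatives were another scaling, no filter, a replicate block, DESeq2 1.42.0, fits on the libraries compared only, and leaving out each library; a block shared by both assays was added after seeing the data.

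Symbols were matched for 71.5% of gene IDs. Members were given values in every library where they passed in a guide comparison, up to 4 per complex by smallest p, and the 3 smallest p per comparison bounded other lists; the rest are given by counts and ranges. The members and lists were chosen with earlier results of these data known. Footprint density per coding length was not analysed here.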

Additional observations from a re-analysis of the deposited data

Results flagged for a closer look

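In each result here the guide effect itself differed between days or between assays, by a test of the interaction (edgeR quasi-likelihood test). MCM2 RNA had a guide difference that was higher at day 14 than at day 3 by 1.12 on the log2 scale. Footprints and RNA differed in their guide effect for CHAF1A (-0.78) and TIMELESS (-0.47) at day 3. They also differed for MCM2 (0.99), CDT1 (0.47) and ORC1 (0.89) at day 14. The MCM2 shift between days passed under all 13 alternatives and the CHAF1A efficiency under all 14, whereas the other 4 were each lost without at least 1 library.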

How the results depend on the processing

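No called guide difference at day 3, at day 14 or between them reversed under any alternative tried; the direction of single genes was not followed for the comparisons with day 0. Counts of the 42 genes called in either direction moved by over 1.5 times as follows. Without the low-count filter, 2 genes passed for the RNA change between days (1 in the reported fit), 12 for day 3 footprints (2), 8 for day 14 footprints (3), 5 for the footprint change between days (0) and 6 for sgGal4 footprints at day 3 against day 0 (3). With DESeq2 the RNA change between days gave 2, both positive, against 0.12% of all genes. Day 3 footprints gave 4 with it, all lower, against 1.9%. With only the libraries compared, sgGal4 RNA gave 15 at day 3 (6) and 26 at day 14 (16) against day 0, day 3 footprints gave 1, sgGal4 footprints at day 3 gave 9, sgDDX3 footprints at day 3 gave 9 (21), and day 3 efficiency gave 1 (2). The cause of these moves was not tested. Calls over all genes also moved on leaving out 1 library. Leaving out 1 library gave 13 to 31 genes for RNA at day 3 (27), 5 to 11 at day 14 (10) and 1 to 6 for the change between days. It gave 1 to 4 for footprints at day 3, 1 to 3 at day 14 and 0 to 3 for their change, and 1 to 3 and 0 to 2 for efficiency at day 3 and day 14. Against day 0, RNA gave 1 to 6 and 4 to 8 with sgGal4 at day 3 and day 14 and 17 to 28 with sgDDX3 at day 14 (29). Footprints gave 0 and 0 to 4 with sgGal4, and 6 to 25 and 4 to 7 with sgDDX3. Over all genes, correlations of the deviations of same-numbered replicates ran from -0.13 to 0.060 between groups in RNA and from -0.26 to 0.22 in footprints. Between the RNA and footprint libraries of a guide and day they ran from -0.023 to 0.085. Over the 42 genes alone, these correlations between assays ran from 0.0050 to 0.34. On the values over all genes the numbers were taken not to pair the samples. At day 3, however, replicate 1 was the lower for most of the 42 genes in all 4 pairs. With the replicate block, 26 genes were lower and 1 higher in RNA at day 3, against 5.73% and 7.09% of all genes. At day 14, 5 were lower and 5 higher, against 5.47% and 7.68%. For the footprint change between days 1 passed, as positive, against 0.298%. The block was 1 term per assay for all days, so it could not absorb a gap of day 3 alone. With sgDDX3 at day 14, replicate 1 was the higher for 27 of 42 genes in RNA and 32 in footprints. A block shared by the RNA and footprint library of each number, chosen after seeing the data, left the efficiency counts of the 42 genes at 2 (day 3) and 3 (day 14); over all genes it gave 4 calls at day 0 (1 in the reported fit) and 18 for the change between days (4). Over all genes, calls in footprints at day 3 were 752, against 1594 without the filter and 151 with only the libraries compared; at day 14 they were 672, 1221 and 241. Calls in RNA at day 14 were 2674, against 1495 with only the libraries compared, and 57.7% of them were higher, against 48.1% without the filter. Calls in efficiency at day 14 were 255, against 98 with only the libraries compared. The RNA change between days gave 30 calls, against 119 without the filter and 13 with only the libraries compared. Its footprint counterpart gave 25, against 471 without the filter, 59 with the block and 81 with DESeq2. The spread between libraries of a group, which may be technical, was estimated at 6.13% in RNA and 9.99% in footprints. Depths of the assays overlapped, and whether the spread or the depth set the lower number of footprint calls was not tested.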
